A study of Mus musculus with 6 samples.

Results

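The data describe 10 genes that cells switch on early after a stimulus, measured in primary mouse microglia with and without a functional Fosb gene. The products of several of them then damp the signal. The 10 genes are the MAP kinase phosphatase genes Dusp1, Dusp2, Dusp5 and Dusp6, the mRNA decay and antiproliferative factors Zfp36 and Btg2, the immediate early response genes Ier2, Ier3 and Ier5, and Rgs1, a regulator of G protein signalling. Members were taken by gene symbol, from probe sets to which the platform table gives exactly 1 symbol. All 10 genes were found, each with 1 probe set, among 19938 genes with such a probe set and 23410 tested probe sets.

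RNA from cultured microglia, the macrophages that reside in the brain, was measured on 6 whole-transcript arrays, 3 per group. The fosB-null group came from mice homozygous for the null allele fosBG, backcrossed to C57BL/6J up to generation N20, and the wild-type group from C57BL/6J mice, so both groups carry the C57BL/6J background. Whether the groups match in the stretch of chromosome 7 around Fosb is not known here. Cultures were started from cerebral cortex of pups aged 2 days, microglia were collected at 10 days and replated for 24 h, and the labels name no stimulus. The null allele is carried by every cell of the animal and not by microglia alone, and the sources used here do not give the sex of the pups or the number pooled per culture. The titles call the arrays biological replicates but do not say that they came from separate litters, so p-values measure the spread between these arrays.

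Mitogen-activated protein (MAP) kinases are activated by phosphorylation of a threonine and a tyrosine, and the MAP kinase phosphatases remove those phosphates. Many of their genes are themselves transcribed in response to MAP kinase activity, through serum response factor at CArG boxes and CREB at cAMP response elements, which closes a negative feedback loop. In macrophages and microglia such genes limit how long inflammatory mRNAs are made and kept, and AP-1, the family of transcription factors to which FosB belongs, is activated by the same kinases.

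Promoter sequence from RefSeq, build GRCm38.p6, was found for 8 of the 10 genes, as windows from 250 bases before to 50 bases after the annotated transcript start; Ier2 and Rgs1 were not matched. Shown here are the 250 bases before the start for the genes with a match to a searched motif, and for Dusp6, the 1 member with a higher mean in fosB-null arrays. Sequences run 5′ to 3′ on the strand of the gene, with motif matches in capitals: the cAMP response element in Dusp1 and Btg2, CArG boxes in Dusp5 (2 side by side) and Zfp36, and the NF-kappaB site in Ier3.
Dusp1, chr17:26508473-26508722, minus strand: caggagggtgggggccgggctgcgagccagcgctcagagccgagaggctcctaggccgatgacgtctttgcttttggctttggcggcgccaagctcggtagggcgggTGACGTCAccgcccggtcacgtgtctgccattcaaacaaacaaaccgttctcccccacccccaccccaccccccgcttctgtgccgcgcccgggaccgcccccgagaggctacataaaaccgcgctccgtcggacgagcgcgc
Dusp5, chr19:53528895-53529144, plus strand: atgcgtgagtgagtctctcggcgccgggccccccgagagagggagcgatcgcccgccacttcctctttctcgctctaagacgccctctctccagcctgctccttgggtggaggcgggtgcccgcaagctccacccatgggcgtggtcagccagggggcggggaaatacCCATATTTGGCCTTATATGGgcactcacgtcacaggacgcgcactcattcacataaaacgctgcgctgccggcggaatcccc
Dusp6, chr10:99262981-99263230, plus strand: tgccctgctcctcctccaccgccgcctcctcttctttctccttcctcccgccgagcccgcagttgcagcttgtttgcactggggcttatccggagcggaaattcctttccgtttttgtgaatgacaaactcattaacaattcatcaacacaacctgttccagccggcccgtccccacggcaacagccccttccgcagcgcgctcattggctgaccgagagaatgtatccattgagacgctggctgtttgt
Zfp36, chr7:28379229-28379478, minus strand: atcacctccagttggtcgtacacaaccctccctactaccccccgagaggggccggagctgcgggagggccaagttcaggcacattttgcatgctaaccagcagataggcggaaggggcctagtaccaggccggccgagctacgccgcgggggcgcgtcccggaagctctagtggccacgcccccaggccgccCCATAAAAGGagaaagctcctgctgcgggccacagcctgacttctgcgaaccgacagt
Btg2, chr1:134079156-134079405, minus strand: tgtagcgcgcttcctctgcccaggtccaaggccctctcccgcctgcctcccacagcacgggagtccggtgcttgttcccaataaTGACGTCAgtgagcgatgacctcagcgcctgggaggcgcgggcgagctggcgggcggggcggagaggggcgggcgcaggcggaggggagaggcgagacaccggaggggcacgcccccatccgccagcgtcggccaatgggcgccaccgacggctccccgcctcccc
Ier3, chr17:35821463-35821712, plus strand: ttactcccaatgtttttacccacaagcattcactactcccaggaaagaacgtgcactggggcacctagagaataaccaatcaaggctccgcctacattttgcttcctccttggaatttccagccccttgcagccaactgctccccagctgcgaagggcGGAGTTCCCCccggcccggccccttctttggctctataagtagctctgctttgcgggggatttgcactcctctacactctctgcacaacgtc

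Motifs were searched on both strands of the 300-base windows. The AP-1 site TGACTCA was in 0 of the 8 member windows and in 5.2% of all 32851 promoter windows. The cAMP response element TGACGTCA was in 2 of 8 against 1.79% of all, 143 to 136 bases before the start in Dusp1 and 166 to 159 bases before it in Btg2. The CArG box was in 2 of 8 against 1.63%, and the NF-kappaB site in 1 of 8 against 4.51%. No match overlapped another. A match describes letters in a window and not binding, and no match says only that those letters are not in this window.

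**Figure D1:**
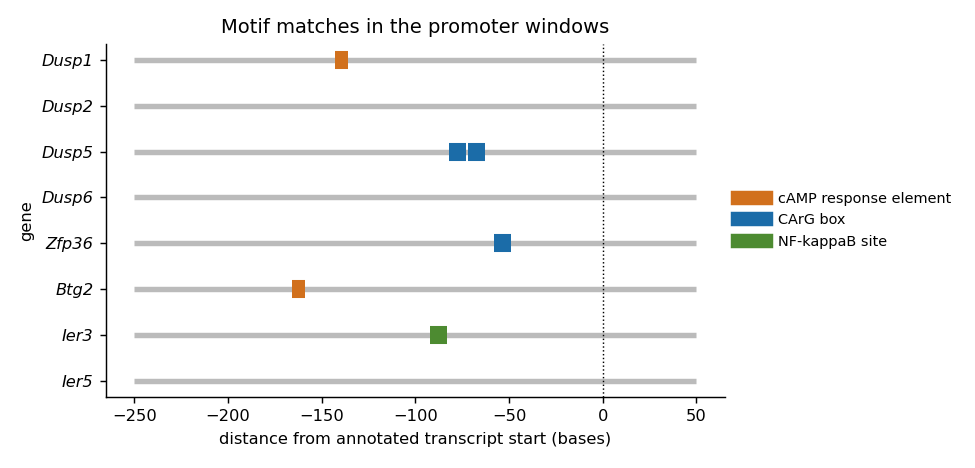
Motif matches in the promoter windows of the 8 genes with a RefSeq window. The x axis is the distance in bases from the annotated transcript start (dotted line), each grey line is 1 window and coloured blocks are matches; 5 of the windows hold a match, all before the start.

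Values are deposited log2 signals, 1 per probe set and array, with array medians of 7.76 to 7.92. Same-numbered arrays of the groups hold exactly the same value in 62.3%, 54.7% and 56% of tested probe sets in pairs 1, 2 and 3, and all 3 pairs are tied in 27.8%. An exact tie is not a measurement of equality, and no source used here says how the ties arose. Over all 23410 tested probe sets limma, a linear model with moderated variances, passed 1 at an adjusted p under 0.05 (0.00427%), which is no member. The Fosb probe set itself had a mean log2 signal of 8.02 ± 0.11 in wild-type arrays and 7.90 ± 0.13 in the fosB-null group (SD, n = 3 each). Whether it lies in the deleted or altered stretch of Fosb is unknown here, so it checks no label. The 9 measured of 10 microglia markers had array means of 11.53 to 11.71 in the wild-type group and 11.60 to 11.72 in the fosB-null group, with differences of 0.09 for Itgam, 0.06 for Cx3cr1 and 0.09 for Aif1. Of these 9 markers 8 were above wild-type and 1 below, with a median difference of 0.02.

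Of the 10 genes, 9 had a lower mean signal in fosB-null than in wild-type arrays and Dusp6 had a higher one, and none passed the adjusted threshold. A lower mean was found in 41.3% of all tested probe sets, but 27.8% were tied in all 3 pairs, which no member was. The largest differences were those of Dusp1 (-0.30 on the log2 scale), Dusp5 (-0.27) and Ier3 (-0.26), whereas Dusp2 and Ier2 differed by -0.01 and -0.02. The median difference was -0.09 for the members and 0.00 for all tested probe sets, ties included. The signal was lower in all 3 pairs for 5 members, Dusp1, Dusp5, Ier3, Ier5 and Rgs1, against 5.57% of all tested probe sets and 37.1% of those with no tied pair, to which 6 members belong. It was higher in all 3 pairs for Dusp6, against 2.2% of all and 14.6% of those with no tied pair. In bulk RNA a lower share of cells that transcribe a gene and less RNA per cell cannot be told apart.

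**Figure D2:**
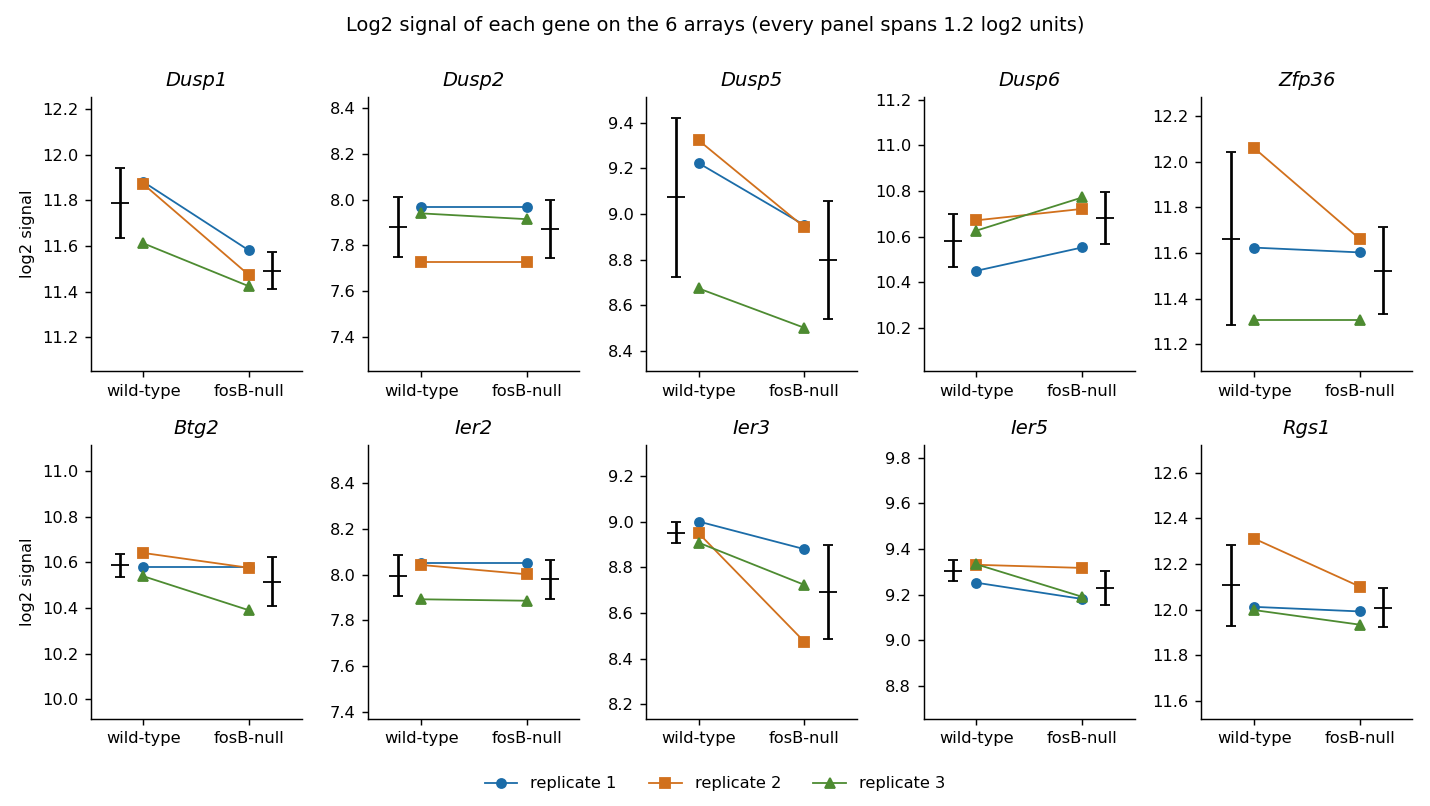
Deposited log2 signal (y axis) of each of the 10 genes by group (x axis: wild-type, fosB-null). Lines join same-numbered arrays, black bars are group means ± SD (n = 3), and every panel spans the same range; the fosB-null arrays lie below all wild-type arrays in Dusp1 and Ier3 alone.

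Dusp1 encodes a nuclear, stress-inducible phosphatase that acts mainly on the kinases p38 and JNK. Its log2 signal was 11.88, 11.87 and 11.61 in wild-type replicates 1, 2 and 3 and 11.58, 11.47 and 11.42 in the fosB-null replicates. Every fosB-null array was lower than every wild-type array, but the gap between the groups was only 0.03, as wild-type replicate 3 was close to fosB-null replicate 1. Groups that do not overlap, with fosB-null lower, were found in 0.709% of all tested probe sets. The means were 11.79 ± 0.15 and 11.49 ± 0.08 (SD, n = 3 each). They differed by -0.30 (standard error 0.10, 1.23-fold), with a 95% interval from -0.53 to -0.06. Limma gave it an adjusted p of 1 (unadjusted p = 0.0193). Dusp1 was the only member with an unadjusted p under 0.05, which was reached with a lower signal by 0.453% of tested probe sets. When single arrays were left out, its difference ranged from -0.38 to -0.25 and its unadjusted p from 0.00466 to 0.0692.

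Dusp5 encodes a nuclear phosphatase selective for ERK. The arrays read 9.22, 9.32 and 8.67 in wild-type replicates 1 to 3 and 8.95, 8.94 and 8.502 in fosB-null ones. Both arrays of replicate 3 were lowest in their group, and the groups overlapped because wild-type replicate 3 lay below fosB-null replicates 1 and 2. The difference was -0.27 with a standard error of 0.20 (95% interval -0.75 to 0.20, limma unadjusted p = 0.215, adjusted p = 1), smaller than the wild-type range of 0.65. Within pairs 1, 2 and 3 it was -0.27, -0.38 and -0.17. It was -0.13 without fosB-null replicate 3, -0.15 without wild-type replicate 2 and -0.47 without wild-type replicate 3.

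Dusp6 encodes a cytoplasmic phosphatase selective for ERK, and was the member with the opposite direction. On the log2 scale it read 10.45, 10.67 and 10.63 in wild-type and 10.55, 10.72 and 10.77 in fosB-null replicates 1 to 3. The groups overlapped, with fosB-null replicate 1 below 2 of the wild-type arrays, although each pair was higher in fosB-null, by 0.10, 0.05 and 0.15. The difference was 0.10 with a standard error of 0.09 (95% interval -0.12 to 0.32, limma unadjusted p = 0.329, adjusted p = 1).

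Dusp2, which encodes a nuclear phosphatase best known from activated immune cells, showed no separation of the groups. Log2 signals were 7.97, 7.73 and 7.94 in wild-type and 7.97, 7.73 and 7.91 in fosB-null replicates 1 to 3. These lie near the array medians of 7.76 to 7.92. Without detection calls it is not known here whether Dusp2 was above background. Pairs 1 and 2 were exactly tied, so its difference of -0.01 rests on pair 3. The 95% interval was -0.25 to 0.23 (limma adjusted p = 1).

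Zfp36 encodes tristetraprolin, which binds AU-rich elements in mRNAs such as that of Tnf and hastens their decay. The Zfp36 log2 signal was 11.62, 12.06 and 11.31 in wild-type and 11.60, 11.66 and 11.31 in fosB-null replicates 1 to 3. Wild-type replicate 2 stood above the other arrays, pair 3 was tied and the groups overlapped. The difference was -0.14 with a standard error of 0.20 (95% interval -0.61 to 0.33, limma unadjusted p = 0.500, adjusted p = 1), with -0.40 in pair 2 and -0.02 in pair 1. The difference was 0.06 without wild-type replicate 2 alone and -0.01 without both arrays of that number, so most of its size comes from pair 2. Zfp36 is the 1 member on chromosome 7 with Fosb, 163 measured genes away in the RefSeq gene order.

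Btg2 encodes an antiproliferative protein that recruits the CCR4-NOT deadenylase to mRNAs. Log2 signals of Btg2 were 10.58, 10.64 and 10.54 in wild-type and 10.58, 10.58 and 10.39 in fosB-null replicates 1 to 3. Pair 1 was tied, and only fosB-null replicate 3 stood below all wild-type arrays. The difference was -0.07 with a standard error of 0.08 (95% interval -0.26 to 0.12, limma unadjusted p = 0.404, adjusted p = 1).

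Ier3 encodes a stress-inducible protein that modulates cell survival and ERK signalling. Its log2 signal was 9.001, 8.95 and 8.91 in wild-type and 8.88, 8.47 and 8.72 in fosB-null replicates 1 to 3. The groups did not overlap, with a gap of 0.03, and the fosB-null arrays spread over 0.41 against 0.09 for wild-type. The difference was -0.26 (standard error 0.11, 1.197-fold lower, 95% interval -0.52 to 0.003, limma unadjusted p = 0.0520, adjusted p = 1). It was -0.12, -0.47 and -0.18 in the pairs, largest in pair 2, and -0.15 without fosB-null replicate 2 or without both arrays of that number.

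Ier5 and Ier2, which encode nuclear proteins of the immediate early response, differed less. The Ier5 log2 signal was 9.25, 9.33 and 9.33 in wild-type and 9.18, 9.32 and 9.19 in fosB-null replicates 1 to 3. The pairs differed by -0.07, -0.01 and -0.14, but the groups overlapped. The Ier5 difference was -0.08 with a standard error of 0.07 (95% interval -0.25 to 0.10, limma unadjusted p = 0.330, adjusted p = 1). The Ier2 log2 signal was 8.05, 8.04 and 7.89 in wild-type and 8.05, 8.002 and 7.89 in fosB-null replicates 1 to 3. Like that of Dusp2, it was near the array medians, and whether it was above background is not known here. Pair 1 was tied, pairs 2 and 3 differed by -0.04 and -0.01, and the Ier2 difference was -0.02 (95% interval -0.21 to 0.18, limma adjusted p = 1).

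Rgs1 encodes a protein that speeds GTP hydrolysis by G protein alpha subunits and so ends signalling from chemokine receptors. The Rgs1 log2 signal was 12.01, 12.31 and 11.998 in wild-type and 11.99, 12.10 and 11.93 in fosB-null replicates 1 to 3. Wild-type replicate 2 stood highest, and fosB-null replicate 2 lay above wild-type replicates 1 and 3, so the groups overlapped. The difference was -0.10 with a standard error of 0.11 (95% interval -0.35 to 0.15, limma unadjusted p = 0.386, adjusted p = 1). It was 0.0043 without wild-type replicate 2 alone, and -0.04 without both arrays of that number.

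**Figure D3:**
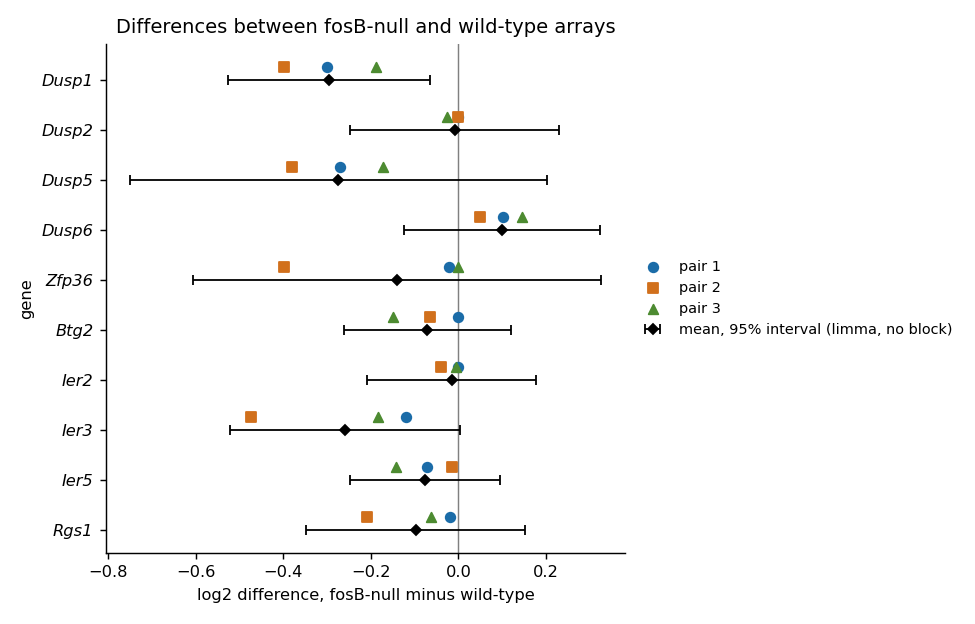
Log2 difference, fosB-null minus wild-type (x axis), of each gene (y axis) in the 3 pairs (coloured points) and over all arrays (diamonds with the 95% interval of the limma fit without a block). The interval of Dusp1 alone lies below 0, and the 3 points of Dusp6 all lie above 0.

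Across the members 22 of 30 pair values were lower in fosB-null arrays, 3 were higher, all of Dusp6, and 5 were tied, in Dusp2, Zfp36, Btg2 and Ier2. The members' median difference was -0.02 in pair 1, -0.14 in pair 2 and -0.10 in pair 3. The wild-type range exceeded the difference between the means for 8 of the 10 genes, the exceptions being Dusp1 and Ier3. That range includes the spread between replicate numbers. The arrays numbered 3 were the lowest of their group for 7 members in wild-type and 6 in fosB-null. All members were read on the same 6 arrays, so the values behind these counts are not independent. Shares over all tested probe sets were not computed for lower or higher pair values, the range or the arrays numbered 3.

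Because same-numbered arrays deviate together, the standard errors and intervals printed for single members, from the fit without a block, include the spread between pairs. The fit with the replicate number as a block is therefore given beside them. Its standard error was smaller for every member, at 0.055 against 0.20 for Dusp5 and 0.10 against 0.11 for Ier3. Its unadjusted limma p was not always smaller, at 0.103 against 0.0520 for Ier3. With the replicate block the unadjusted p was under 0.05 for 3 members, Dusp1 (0.0235), Dusp5 (0.0270) and Dusp6 (0.0447), against 2.31% of all tested probe sets, and every member had an adjusted p of 0.674. When the number was a random block, an alternative chosen after seeing the data, 7 members were under 0.05 against 9.63% of all. The exceptions were Dusp2, Zfp36 and Ier2. This random block fit used 1 correlation, 0.956, for every probe set. That correlation was estimated over all tested probe sets with their many exact ties, so the p-values of this fit may be too small. The lowest adjusted p of a member was then 0.0723, for Dusp1, so no member passed in any of these fits.

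**Figure D4:**
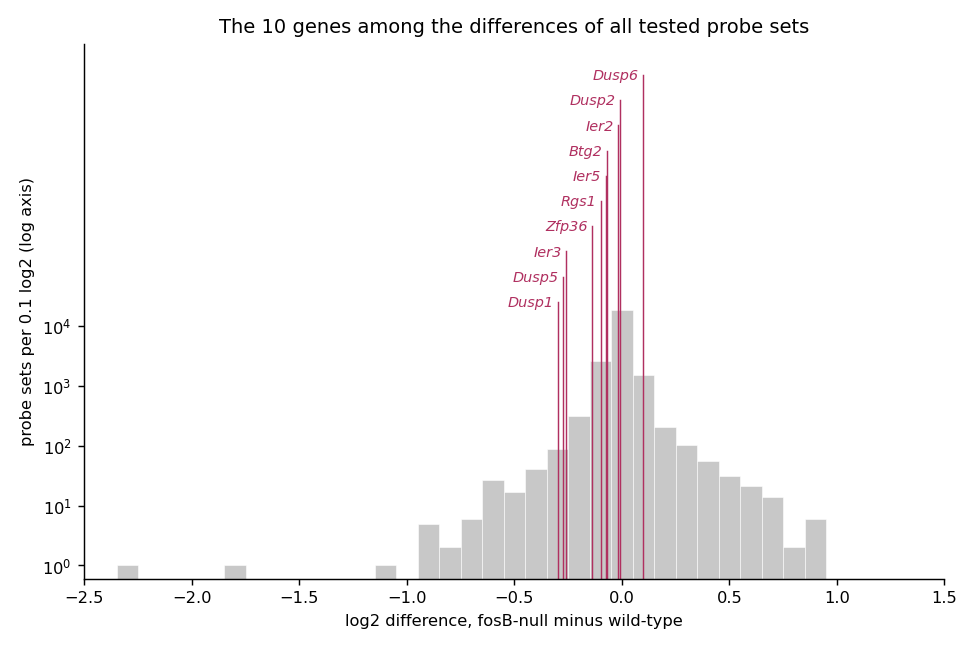
Number of tested probe sets (y axis, log scale) by log2 difference, fosB-null minus wild-type, in steps of 0.1 (x axis), with the 10 genes as vertical lines whose height has no meaning. The difference of Dusp1 is reached or passed on the lower side by 0.581% of probe sets, and that of Dusp6 on the higher side by 3.4%.

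Other genes of the same pathways were compared from lists fixed with earlier results of these data known, and none of their members passed the adjusted threshold of limma. Of the 6 other MAP kinase phosphatases 3 were below wild-type, 2 above and 1 tied, with a median difference of 0.00 and a lowest of -0.14 for Dusp4, which encodes a close relative of Dusp1. Dusp16 and Dusp7 differed by 0.04 and 0.03. Of the 13 atypical dual-specificity phosphatases 7 were below and 2 above, and their differences spanned -0.08 for Dusp23 to 0.07 for Dusp26, with -0.02 for Dusp18. The kinases on which these enzymes act, and the kinases upstream, differed little: of 20 measured of 24, 10 were below and 5 above, with a median of 0.00, and Map2k5, Map2k3 and Map3k7 differed by 0.08, -0.08 and 0.05. None of these 3 lists held a gene with an unadjusted p under 0.05.

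Of 12 other feedback and target genes of ERK signalling, 6 were below wild-type and 3 above, with a median of -0.01 against -0.09 for the 10 genes described here. Spry2, which encodes a Sprouty inhibitor of receptor tyrosine kinase signalling, was the only one named whose groups did not overlap. Its log2 signal was 8.51, 8.89 and 8.54 in wild-type and 8.41, 8.40 and 8.43 in fosB-null replicates 1 to 3. It differed by -0.23 with a standard error of 0.11 (limma unadjusted p = 0.0788, adjusted p = 1). Errfi1, a feedback inhibitor of the EGF receptor, differed by -0.14 and Spred3 by -0.20, and no gene of this list had an unadjusted p under 0.05.

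Genes tied to mRNA decay lay on both sides of 0, and neither they nor the BTG, IER and RGS relatives included a gene with an unadjusted p under 0.05. Of the 12 relatives of Zfp36 and decay factors 5 were below wild-type and 7 above, with -0.08 for the endonuclease gene Zc3h12a, -0.07 for Cnot8 and 0.05 for Hnrnpd. Of the 11 mRNAs that tristetraprolin is known to bind, 6 were below and 3 above with a median of 0.00. Il1b differed by -0.38 (limma unadjusted p = 0.0998, adjusted p = 1), with 0.14 in pair 1 and -0.84 and -0.46 in pairs 2 and 3, and Il6 and Ptgs2 differed by -0.05 and -0.07. The 5 measured of 6 relatives of the BTG and IER genes were all below wild-type, beside 41.3% of all tested probe sets, ties included. Btg1 differed by -0.09, Tob2 by -0.05 and Tob1, tied in pairs 1 and 3, by -0.08. The smallest difference of these 5 was -0.01. Of 17 measured of 18 other RGS genes 8 were below and 4 above. Rgs18, expressed in myeloid cells and platelets, differed by 0.32 with a tie in pair 1 and 0.56 and 0.41 in the others, and Rgs2 and Rgs14 differed by -0.06 and -0.04.

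The transcription factors of the immediate early response, which share their upstream kinases with the 10 genes, were below wild-type in 18 of 20 cases, above in 1 and tied in 1, with a median of -0.06. A lower mean was found in 41.3% of all tested probe sets, ties included. Of the 20 factors 8 were lower in all 3 pairs, against 5.57% of all tested probe sets and 37.1% of those with no tied pair. The list includes Fosb itself, the gene made null. Without it 17 of 19 were below wild-type and 7 were lower in all 3 pairs. The orphan nuclear receptor genes Nr4a1 and Nr4a3 differed by -0.92 and -0.42 and Fos by -0.33, with limma unadjusted p of 0.00826, 0.0188 and 0.0368 and an adjusted p of 1 for each. In pair 2, where Dusp1, Zfp36, Ier3 and Rgs1 also had their most negative values, Nr4a1 differed by -1.61 and Fos by -0.71. In pair 3 they differed by -0.19 and -0.03. Nr4a3 instead had its most negative value in pair 1, at -0.58, with -0.42 in pair 2 and -0.25 in pair 3. Dusp5 had its most negative value in pair 2 as well, and Btg2 and Ier5 had theirs in pair 3.

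**Figure D5:**
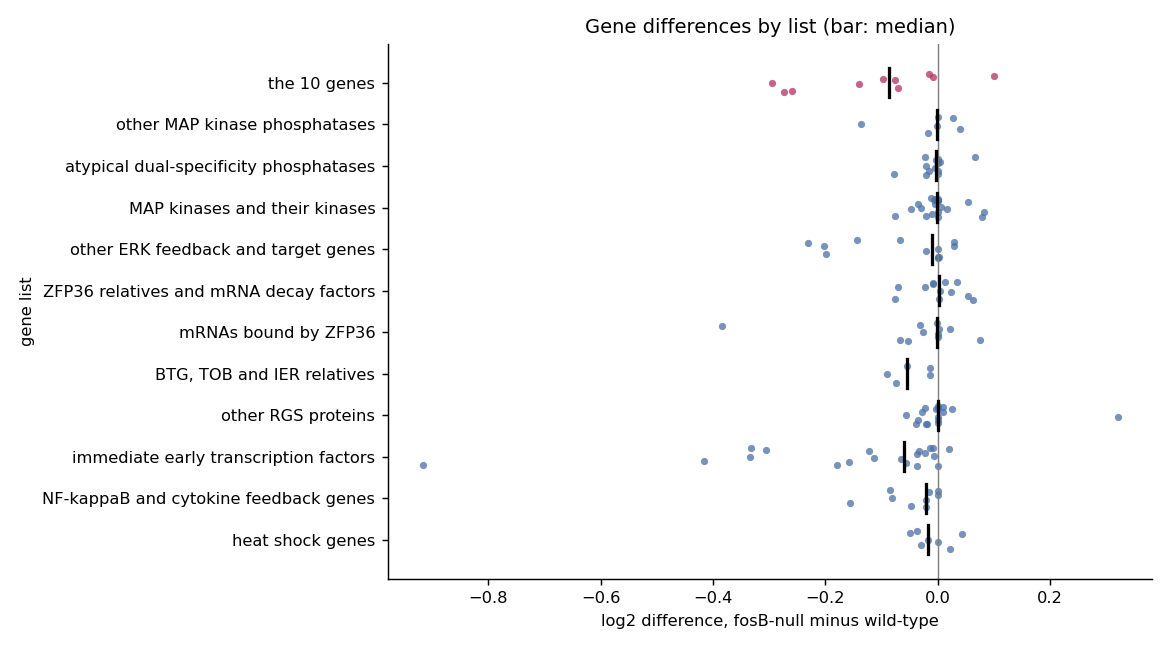
Log2 difference, fosB-null minus wild-type (x axis), of every measured gene (points) in each list (y axis), with black bars at the medians and no test of the lists. The 10 genes have a median of -0.09 and the immediate early transcription factors one of -0.06, and Nr4a1 lies lowest at -0.92.

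The genes whose signal ran most like that of Dusp1 over the 6 arrays, among 8851 non-member probe sets with at least the median spread, were Mmp19 (Pearson r = 0.991), Pvr (0.978), Pinx1 (0.978), Prune1 (0.977) and Ccl5 (0.973). Those most like Dusp6 were Myo9a (0.98), Rexo5 (0.976), Rbm26 (0.973), Ifna12 (0.963) and Lpcat4 (0.963). Those like Dusp1 were all lower in fosB-null arrays in every pair, with differences from -0.475 for Pvr, which lies near Fosb, to -0.202 for Pinx1. Those like Dusp6 had higher means, by 0.07 for Rexo5 to 0.28 for Ifna12. The r thus include the group difference itself. The 6 arrays are tied in pairs and not independent, so these r describe likeness only. Markers of other cells did not pass the threshold either: the 6 astrocyte markers were tied in every pair, and Mbp, of oligodendrocytes, was the one named with groups that did not overlap, at -0.21, with -0.32, -0.24 and -0.06 in the pairs. The array means of the 5 measured of 6 oligodendrocyte lineage markers were 8.15 to 8.30 in the wild-type group and 8.09 to 8.18 in the fosB-null group. Their part in the members' values was not tested.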

How the data were processed

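Log2 signals of 6 Affymetrix whole-transcript arrays were used as deposited by the authors, who, per the submitters' processing notes, used Affymetrix Expression Console. For its version, summary method and normalization the labels name nothing. The values, 1.73 to 14.6, show the log2 scale. The table held 35557 probe sets: 21789 with 1 symbol, 1621 with several and 12147 with none in the platform table. Symbols were updated through RefSeq gene numbers (GRCm38.p6), which matched 21698.

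The comparison used limma 3.58.1 (R 4.3.3; lmFit and eBayes, two-sided, no block) over the 23410 probe sets with a symbol, with Benjamini-Hochberg adjustment over all of them and a threshold of 0.05. The code was tested on simulated data with independent arrays and no ties, which does not show how the fits behave on these tied arrays. Differences are fosB-null minus wild-type, and intervals cover 95%. The labels number arrays 1 to 3 in each group without saying what a number means. Deviations of same-numbered arrays from their group means correlated at 0.911, 0.821 and 0.82 over tested probe sets. Those probe sets include the many exact ties of unknown origin, so these correlations do not show what a number means. Arrays were paired here by number. All 10 members are named, up to 3 genes of each list by lowest p, and the 5 probe sets most like Dusp1 and Dusp6. In a list, the probe set with the highest mean stands for a gene. Alternatives were other scalings, filters, tested sets and variance models, the replicate block and leaving out arrays. The members and lists were chosen with earlier results of these data known. The number of arrays limits the precision, and no detection calls were used.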

Additional observations from a re-analysis of the deposited data

How the results depend on the processing

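No member passed the adjusted threshold under any setting tried, and 8 of 60 member values reversed when single arrays were left out. None reversed without both arrays of a number, or with quantile normalization, median centring or array weights. The other 9 settings leave the differences as they are. The number of probe sets past the threshold was 1. It was 1 to 2 with single arrays left out, the higher without wild-type replicate 3, and was 0 with the replicate block, 0 with the ordinary test and 0 without both arrays of replicate 1, 2 or 3. It was 47 with the random block; this alternative and those without both arrays were chosen after seeing the data. Members below wild-type numbered 9, 6 to 9 with single arrays left out, and 8 without both arrays of replicate 3, where Dusp2 was tied. Leaving out single arrays gave Dusp2 values of -0.084 (wild-type replicate 2 absent) to 0.063 (fosB-null replicate 2 absent) and Zfp36 values of -0.319 (wild-type replicate 3 absent) to 0.058 (wild-type replicate 2 absent). For Ier2 they were -0.068 (wild-type replicate 3 absent) to 0.032 (fosB-null replicate 3 absent), and for Rgs1 -0.152 (wild-type replicate 3 absent) to 0.0043 (wild-type replicate 2 absent). Dusp2 was also above 0 without wild-type replicate 1 or 3, and Ier2 without wild-type replicate 1 or 2. Directions of Dusp1, Dusp5, Dusp6, Btg2, Ier3 and Ier5 did not change with single arrays left out, but sizes did: Dusp6 ranged from 0.033 (wild-type replicate 1 absent) to 0.164 (fosB-null replicate 1 absent), Btg2 from -0.104 to -0.009 (fosB-null replicate 3 absent) and Ier5 from -0.119 (fosB-null replicate 2 absent) to -0.051. The causes were not tested. The median of all tested probe sets moved to -0.02 with quantile normalization or median centring. The 3 arrays per group limit the precision, and the printed intervals are those of the fit without a block. These intervals include the spread between pairs.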

Other observations

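Feedback genes of NF-kappaB and cytokine signalling were also compared. Of 9 genes, 7 were below wild-type, none above and 2 tied, beside a lower mean in 41.3% of all tested probe sets, ties included. The median difference was -0.02, and no gene passed the adjusted threshold of limma or had an unadjusted p under 0.05. Bcl3, an atypical inhibitor of the NF-kappaB family, differed by -0.16 on the log2 scale, with -0.18, -0.09 and -0.20 in the pairs. Nfkbia, which encodes an inhibitor that NF-kappaB itself induces, differed by -0.08, and Socs1, a brake on cytokine receptors, by -0.09.

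Heat shock genes, which cells transcribe under stress and handling, did not show a common direction. Of 7 measured of 8 genes, 4 were below wild-type, 2 above and 1 tied. Hspa8 differed by 0.04, Hsph1 by -0.05 and Dnaja1 by -0.04. The remaining marker lists had median differences of 0.00 for neurons and endothelium, 0.02 for fibroblasts and mural cells and 0.03 for blood leukocytes.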
